A study of Homo sapiens with 12 samples.

Results

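The genes described here restrain or drive passage through the G1 phase of the cell cycle: the cyclin-dependent kinase inhibitors CDKN1A, CDKN1B, CDKN1C, CDKN2C and CDKN2D, the pocket proteins RB1, RBL1 and RBL2, and the D-type cyclins CCND1 and CCND3. They were chosen by name, as 10 symbols, and 9 of them were among the 17687 genes measured. Each of the 9 had a single value per array, and CDKN2C is not analysed here. Expression was measured on 12 arrays from 2 human prostate cancer sublines, LNCaPabl-Enza and LNCaPabl-Abi, which are named after the established line LNCaP. Each subline was given 100 nM dexamethasone, a synthetic steroid agonist of the glucocorticoid receptor, or the solvent DMSO for 24 h. The 4 groups are called Enza_Dex (LNCaPabl-Enza with dexamethasone), Enza_Ctrl (LNCaPabl-Enza with DMSO), Abi_Dex (LNCaPabl-Abi with dexamethasone) and Abi_Ctrl (LNCaPabl-Abi with DMSO), and each held 3 arrays. The labels do not spell out Abi and Enza, name no genetic alteration, and give the medium, with fetal calf serum, for LNCaP. All values are log2 levels as deposited, and differences between them are log2 differences.

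In G1, mitogens raise the D-type cyclins, which activate the kinases CDK4 and CDK6. These kinases, followed by cyclin E with CDK2, phosphorylate the pocket proteins and so release the E2F transcription factors, which switch on the genes of DNA replication. CDKN1A (p21), CDKN1B (p27) and CDKN1C (p57) bind cyclin-CDK complexes broadly, whereas CDKN2D (p19) belongs to the INK4 family, which binds CDK4 and CDK6. RB1 holds activating E2Fs, while RBL1 (p107) and RBL2 (p130) join the DREAM complex, which represses cell cycle genes in quiescence. CDKN1A is the best known target of p53, and glucocorticoids slow the cycle of many cell types in G1, with CDKN1A, CDKN1B and CDKN1C among the genes raised in several of them.

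The start-site regions of 3 members, picked by their values, are shown. CDKN1A and CDKN1B separated the lines in opposite directions, and RBL1 had the lowest dexamethasone difference of the members in LNCaPabl-Abi. The sequences are RefSeq's for GRCh38.p14, from 250 bases before to 50 bases after the start site, and run 5′ to 3′ on the gene's strand. CDKN1A lies at chr6:36678464-36678763 on the + strand, CDKN1B at chr12:12717118-12717417 on the + strand, and RBL1 at chr20:37095948-37096247 on the - strand. Capitals mark matches on either strand to the Sp1 motif GGGCGG, the TATA motif TATAAA, or any of the E2F motifs TTTCCCGC, TTTGGCGC and TTTCGCGC.
CDKN1A: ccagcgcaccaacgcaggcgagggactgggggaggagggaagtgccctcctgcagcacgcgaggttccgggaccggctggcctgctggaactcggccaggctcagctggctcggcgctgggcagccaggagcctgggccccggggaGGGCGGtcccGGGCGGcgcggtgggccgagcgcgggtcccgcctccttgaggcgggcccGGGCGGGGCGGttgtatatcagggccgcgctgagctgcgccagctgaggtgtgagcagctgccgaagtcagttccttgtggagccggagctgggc
CDKN1B: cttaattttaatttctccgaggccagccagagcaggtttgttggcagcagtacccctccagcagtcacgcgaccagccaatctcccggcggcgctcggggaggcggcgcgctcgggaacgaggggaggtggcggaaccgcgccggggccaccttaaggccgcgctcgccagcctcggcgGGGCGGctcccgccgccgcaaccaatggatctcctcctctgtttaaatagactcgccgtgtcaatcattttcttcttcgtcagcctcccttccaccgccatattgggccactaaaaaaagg
RBL1: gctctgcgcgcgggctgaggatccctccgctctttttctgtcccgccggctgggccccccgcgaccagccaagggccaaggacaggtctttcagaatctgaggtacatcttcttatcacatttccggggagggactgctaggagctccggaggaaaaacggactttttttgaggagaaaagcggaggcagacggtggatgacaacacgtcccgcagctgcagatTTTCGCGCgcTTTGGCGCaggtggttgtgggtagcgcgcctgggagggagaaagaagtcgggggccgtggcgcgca
The RBL1 window held 2 E2F matches, TTTCGCGC with its first base 26 bases before the start site and TTTGGCGC 16 bases before it. At least 1 of the 3 E2F motifs was present in 2.73% of 34796 promoter windows of this length. CDKN1A held 4 GGGCGG matches, the last 2 of which overlap by 1 base, and CDKN1B held 1, a motif found in 44.9% of all windows. The motif TATAAA, present in 11.6% of windows, had no match in the 3 sequences. The glucocorticoid receptor motif AGAACA, searched on both strands and present in 14.8% of windows, had none in these 3 windows either. A match here is a string of letters in a short window and does not show that a factor binds.

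Before the values, the arrays and cells were checked. Enza_Ctrl replicate 2 stood apart: its median Pearson r with the other arrays over all genes was 0.855, while each of the other 11 arrays had a median r between 0.986 and 0.990. Its values were also compressed, with an SD over genes of 2.76 against 3.40 to 3.45 on the others. Results are therefore given with 12 arrays and with 11, that is, without this array. The 6 measured prostate luminal markers were all above the median level of all genes, FOXA1 being the highest with a median of 14.60 and KLK3 the lowest with 7.07. Of the fibroblast, immune and endothelial markers, COL1A2 and CD68 had a median over arrays above that level of 6.59. On Enza_Ctrl replicate 2 the endothelial gene CDH5 was at 9.25, against at most 3.94 on the other 11 arrays, and the T cell gene CD3E at 7.06, against at most 5.97. Of the other endothelial markers PECAM1 at 4.56 and KDR at 3.33 were above their highest value on the others, 4.11 and 3.07. VWF at 4.97 was below its lowest, 5.00. Among the other immune markers CD68 and LYZ were above their range on the other arrays, and PTPRC at 5.03 was inside it. The mean of the endothelial markers was 5.53 there, against at most 4.02 on the others. The part of these marker levels in the members' values on that array was not tested. In bulk samples, fewer cells of a type and less RNA per cell cannot be told apart.

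**Figure D1:**
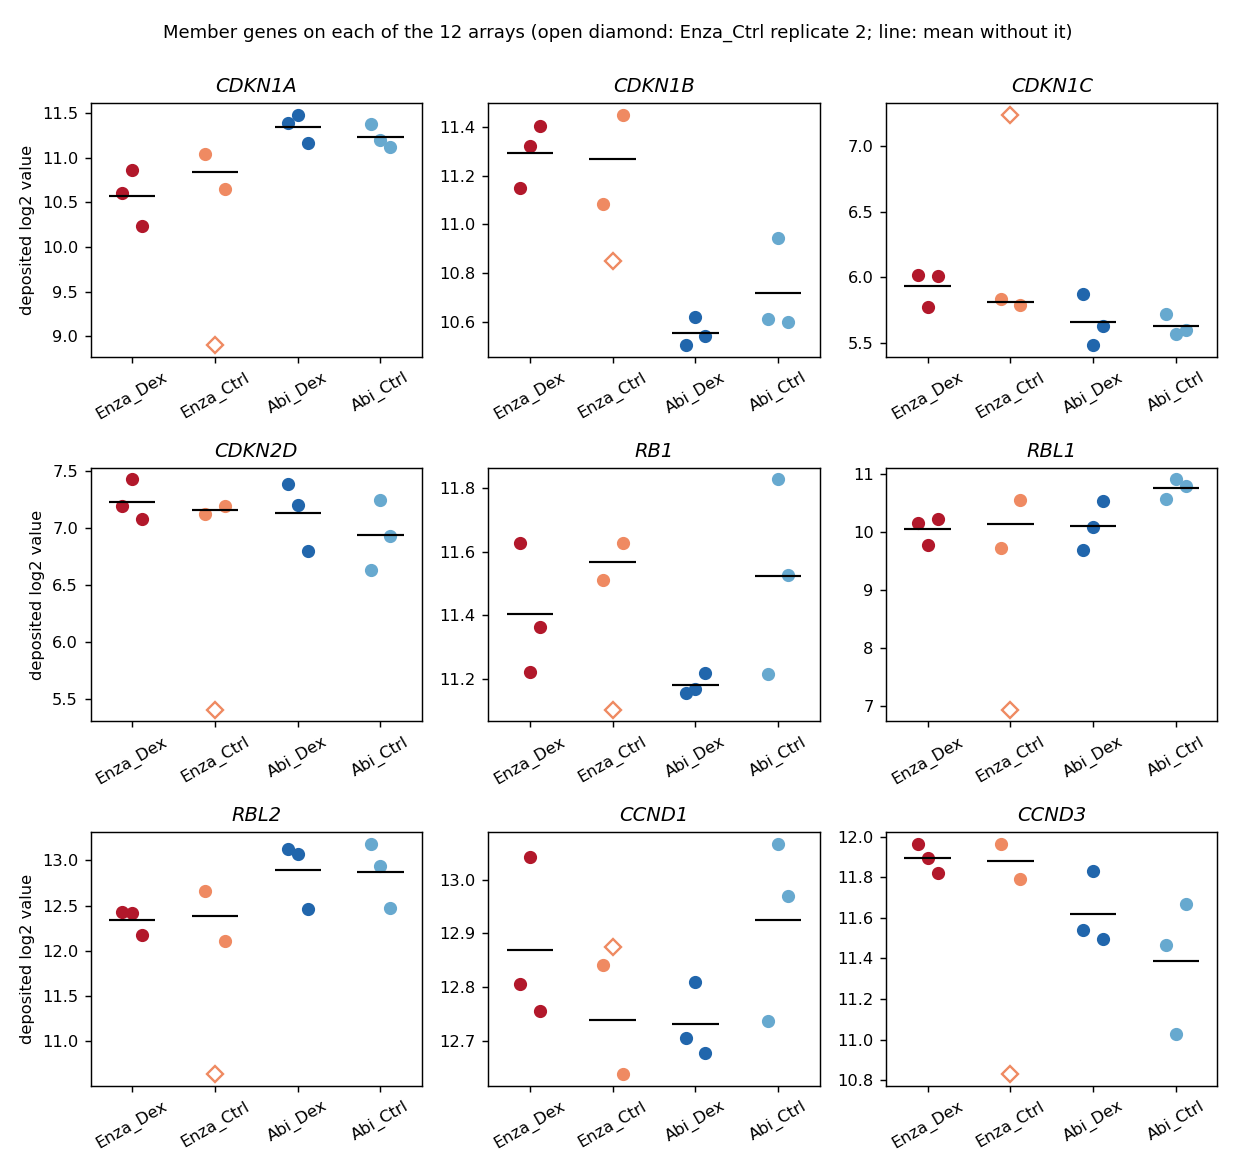
Deposited log2 value (vertical axes, each with its own range) of the 9 measured genes on each of the 12 arrays, by group. Points are arrays, the open diamond is Enza_Ctrl replicate 2 and the line is the group mean without it. The group means of CDKN1B are higher and those of CDKN1A and RBL2 lower in LNCaPabl-Enza, while the dexamethasone and DMSO points of a line mostly overlap.

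CDKN1B (p27), an inhibitor of cyclin E with CDK2 whose protein is removed by the SKP2 ubiquitin ligase, was higher in LNCaPabl-Enza. It was at 11.15, 11.32 and 11.40 in Enza_Dex, at 11.08, 10.85 and 11.45 in Enza_Ctrl, at 10.50, 10.62 and 10.54 in Abi_Dex and at 10.61, 10.95 and 10.60 in Abi_Ctrl. Every LNCaPabl-Enza array except Enza_Ctrl replicate 2 lay above every LNCaPabl-Abi array. The order of the group means over 11 arrays was Abi_Dex, Abi_Ctrl, Enza_Ctrl, Enza_Dex from low to high, and the 2 treatments of a line did not differ beyond their spread.

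CDKN1A (p21) ran the other way. It was at 10.60, 10.86 and 10.24 in Enza_Dex, at 11.04, 8.90 and 10.64 in Enza_Ctrl, at 11.38, 11.48 and 11.16 in Abi_Dex and at 11.37, 11.20 and 11.12 in Abi_Ctrl. All 6 LNCaPabl-Enza arrays were below all 6 LNCaPabl-Abi arrays, and Enza_Ctrl replicate 2 lay at -1.94 relative to the mean of the other 2 arrays of its group. CDKN1C (p57), an imprinted inhibitor, was at 6.02, 5.78 and 6.01 in Enza_Dex, at 5.83, 7.24 and 5.79 in Enza_Ctrl, at 5.87, 5.48 and 5.63 in Abi_Dex and at 5.72, 5.57 and 5.60 in Abi_Ctrl. Its whole range over 11 arrays was 0.54, and the deviating array was the highest of all. On those 11 arrays it was at most 6.02, under the median level of all genes, 6.59. CDKN2D (p19) was at 7.19, 7.43 and 7.08 in Enza_Dex, at 7.12, 5.40 and 7.19 in Enza_Ctrl, at 7.39, 7.20 and 6.79 in Abi_Dex and at 6.63, 7.25 and 6.93 in Abi_Ctrl. Its groups overlapped in every comparison on 11 arrays.

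Of the pocket proteins, RB1, the retinoblastoma protein, varied least. It was at 11.63, 11.22 and 11.36 in Enza_Dex, at 11.51, 11.10 and 11.63 in Enza_Ctrl, at 11.15, 11.17 and 11.22 in Abi_Dex and at 11.21, 11.83 and 11.53 in Abi_Ctrl. The 3 Abi_Dex arrays were the tightest set (11.18 ± 0.03, SD, n = 3) and overlapped Abi_Ctrl at its lowest array. RBL1 (p107), itself a gene controlled by E2F, was at 10.15, 9.77 and 10.23 in Enza_Dex, at 9.72, 6.94 and 10.55 in Enza_Ctrl, at 9.68, 10.08 and 10.54 in Abi_Dex and at 10.56, 10.91 and 10.79 in Abi_Ctrl. Abi_Ctrl was the highest group and lay above every array of the other 3 groups, narrowly so for the highest array of Abi_Dex and of Enza_Ctrl. RBL2 (p130), the pocket protein of resting cells, was at 12.43, 12.42 and 12.18 in Enza_Dex, at 12.66, 10.64 and 12.11 in Enza_Ctrl, at 13.12, 13.07 and 12.47 in Abi_Dex and at 13.19, 12.94 and 12.48 in Abi_Ctrl. The lowest array of Abi_Dex and of Abi_Ctrl lay just above the highest Enza_Dex array. Relative to the mean of the other 2 Enza_Ctrl arrays, the deviating array lay at -3.20 for RBL1, the farthest of all members, and at -1.75 for RBL2.

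CCND1 (cyclin D1) was at 12.81, 13.04 and 12.76 in Enza_Dex, at 12.84, 12.88 and 12.64 in Enza_Ctrl, at 12.71, 12.81 and 12.68 in Abi_Dex and at 12.74, 13.07 and 12.97 in Abi_Ctrl. Its 4 groups overlapped, and it was the member least moved on Enza_Ctrl replicate 2, by 0.14. CCND3 (cyclin D3) was at 11.97, 11.90 and 11.82 in Enza_Dex, at 11.97, 10.83 and 11.79 in Enza_Ctrl, at 11.54, 11.83 and 11.49 in Abi_Dex and at 11.46, 11.03 and 11.67 in Abi_Ctrl. On 11 arrays the LNCaPabl-Enza arrays were all above those of the other line, except that Abi_Dex replicate 2 lay above Enza_Dex replicate 3 and Enza_Ctrl replicate 3.

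Dexamethasone changed none of the 9 members past the threshold in either line, although SGK1, a kinase gene induced by glucocorticoids, rose in LNCaPabl-Abi by 7.39 ± 0.63 (SE, adjusted p = 5.08e-05 on 11 arrays). With 12 arrays its adjusted p was 0.00461, and 0.0643 without Abi_Ctrl replicate 2. A gene was called at a limma adjusted p under 0.05 over all genes. In LNCaPabl-Enza SGK1 was at 4.43 ± 0.70 on 11 arrays (adjusted p = 0.269) and at 4.55 on 12, not called with either. Its values in that line were 9.66, 9.99 and 13.20 in Enza_Dex against 6.13, 6.17 (replicate 2) and 6.89 in Enza_Ctrl. There 0 of 9 members and 0% of all genes were called with 12 arrays, and again 0 of 9 and 0% with 11, where 700 and 530 genes had an unadjusted p under 0.05. In LNCaPabl-Abi 0 of 9 members were called with either set, against 0.0283% of all genes with 12 arrays and 0.141% with 11, where 241 and 1254 genes had an unadjusted p under 0.05.

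**Figure D2:**
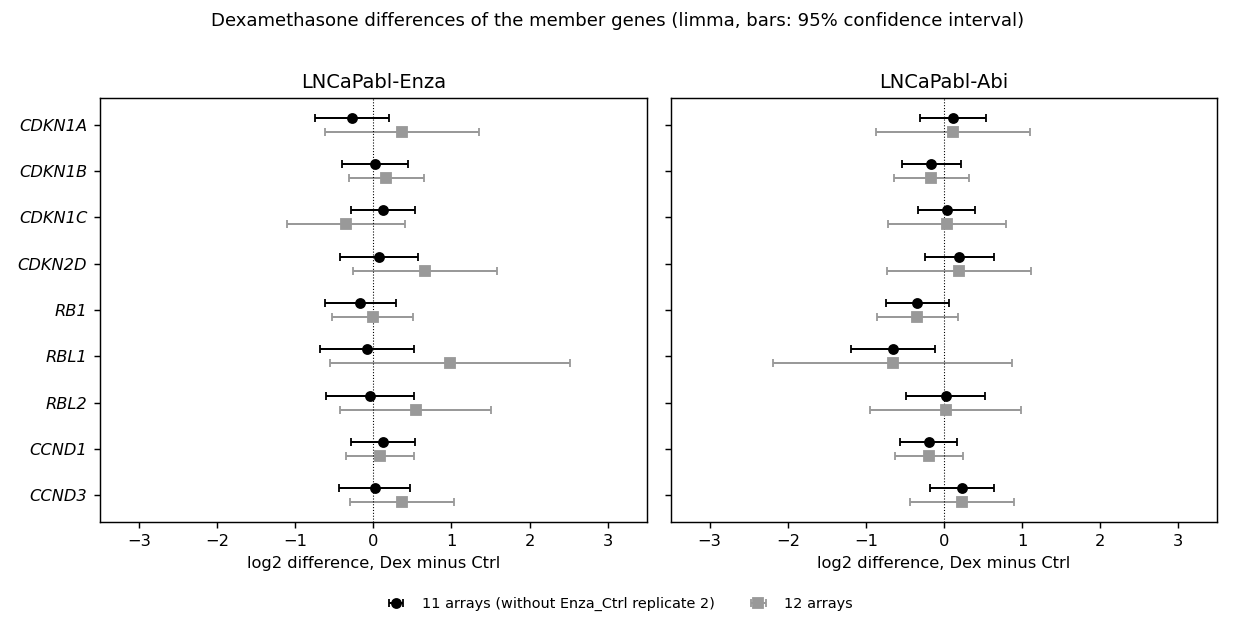
Log2 difference of dexamethasone minus DMSO (horizontal axes) for the 9 genes in LNCaPabl-Enza (left) and LNCaPabl-Abi (right). Points are limma estimates with 95% confidence intervals from 11 arrays (black circles) and 12 arrays (grey squares). On 11 arrays every interval in LNCaPabl-Enza includes 0, and in LNCaPabl-Abi RBL1 alone, at -0.65, has an interval below 0.

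In LNCaPabl-Enza the dexamethasone differences on 11 arrays were small for every member. The largest in size was CDKN1A at -0.28 ± 0.22 (SE), with a 95% confidence interval from -0.75 to 0.20. CDKN1B was at 0.02 ± 0.20, CDKN1C at 0.12 ± 0.19 and CDKN2D at 0.07 ± 0.23. RB1 was at -0.17 ± 0.21, RBL1 at -0.08 ± 0.28, RBL2 at -0.04 ± 0.26, CCND1 at 0.13 ± 0.19 and CCND3 at 0.02 ± 0.21, all 9 with an adjusted p of 1.00. Groups overlapped for all 9 with either set, whereas 8.74% of all genes had groups that did not overlap with 12 arrays and 15.9% with 11. With 12 arrays the low values of Enza_Ctrl replicate 2 moved several of these differences, RBL1 to 0.98 ± 0.70, CDKN2D to 0.66 ± 0.42, RBL2 to 0.54 ± 0.44 and CDKN1A to 0.37 ± 0.45, none of them called.

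In LNCaPabl-Abi, RBL1 was the member whose groups did not overlap, 1 of 9, where 12.3% of all genes had groups that did not overlap with 12 arrays and, since the deviating array is in neither group, also 12.3% with 11. It averaged 10.10 ± 0.43 in Abi_Dex and 10.76 ± 0.18 in Abi_Ctrl (SD, n = 3 each). The difference of -0.65 ± 0.25 (SE, interval -1.19 to -0.12) on 11 arrays was 0.635-fold on the deposited scale, with an unadjusted p of 0.0199 and a limma adjusted p of 0.626. With 12 arrays the SE was 0.70 and the adjusted p 1.00. RB1 was at -0.34 ± 0.19 (adjusted p = 0.734), CCND3 at 0.23 ± 0.19, CDKN2D at 0.19 ± 0.21, CCND1 at -0.19 ± 0.17, CDKN1B at -0.16 ± 0.18, CDKN1A at 0.11 ± 0.20, CDKN1C at 0.03 ± 0.17 and RBL2 at 0.02 ± 0.24, with adjusted p from 0.734 to 0.989. For CDKN1A, CDKN1B and CDKN1C the intervals ended at 0.53, 0.22 and 0.40 on 11 arrays, and at 1.09, 0.32 and 0.79 with 12.

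The difference between the responses, LNCaPabl-Enza minus LNCaPabl-Abi, was called for 0 of 9 members and 0% of all genes with 12 arrays, and likewise for 0 of 9 and 0% with 11, where 266 and 566 genes had an unadjusted p under 0.05. RBL1 had the highest value, 0.57 ± 0.38 (SE) on 11 arrays with an adjusted p of 0.999, and 1.64 ± 0.99 on 12. The mean dexamethasone effect over both lines was called for 0.0283% of genes with 12 arrays and 0.153% with 11, and for 0 of 9 members with either. RBL1 had the lowest value among the members, -0.37 ± 0.19 on 11 arrays (adjusted p = 0.880), and the opposite sign, 0.16 ± 0.49, with 12. The responses share their DMSO and dexamethasone arrays with the comparisons of the lines.

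Between the lines under dexamethasone, CDKN1B was higher in LNCaPabl-Enza, at 11.29 ± 0.13 in Enza_Dex and 10.55 ± 0.06 in Abi_Dex (SD, n = 3 each). The difference was 0.74 ± 0.18 (SE, interval 0.36 to 1.12), 1.67-fold on the deposited scale, with a limma adjusted p of 0.0420 on 11 arrays. It was the 1 member of 9 called, where 2.28% of all genes were. With 12 arrays 0 of 9 members and 0.277% of genes were called, and CDKN1B had the same difference with an SE of 0.22 and an adjusted p of 0.442. When a further array was left out in turn, CDKN1B was called in 5 of 11 cases, with adjusted p from 0.0257 to 0.161. The call was lost without any single array of Enza_Dex or Abi_Dex.

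CDKN1A fell short of the threshold in the same comparison. It averaged 10.57 ± 0.31 in Enza_Dex and 11.34 ± 0.16 in Abi_Dex (SD, n = 3 each), a difference of -0.78 ± 0.20 (SE, interval -1.20 to -0.35) or 0.584-fold, with an adjusted p of 0.0577 on 11 arrays and 1.00 on 12. It passed the threshold when all 12 arrays were fitted with array weights, with a limma adjusted p of 0.0169. RBL2 was at -0.54 ± 0.24 (adjusted p = 0.376), CDKN1C at 0.27 ± 0.17, CCND3 at 0.27 ± 0.19, RB1 at 0.22 ± 0.19, CCND1 at 0.14 ± 0.17, CDKN2D at 0.10 ± 0.21 and RBL1 at -0.05 ± 0.25. The groups did not overlap for 4 of 9 members, CDKN1B and, narrowly, RB1 above and CDKN1A and RBL2 below, where 20.1% of all genes had no overlap with 12 arrays and 20.1% with 11.

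**Figure D3:**
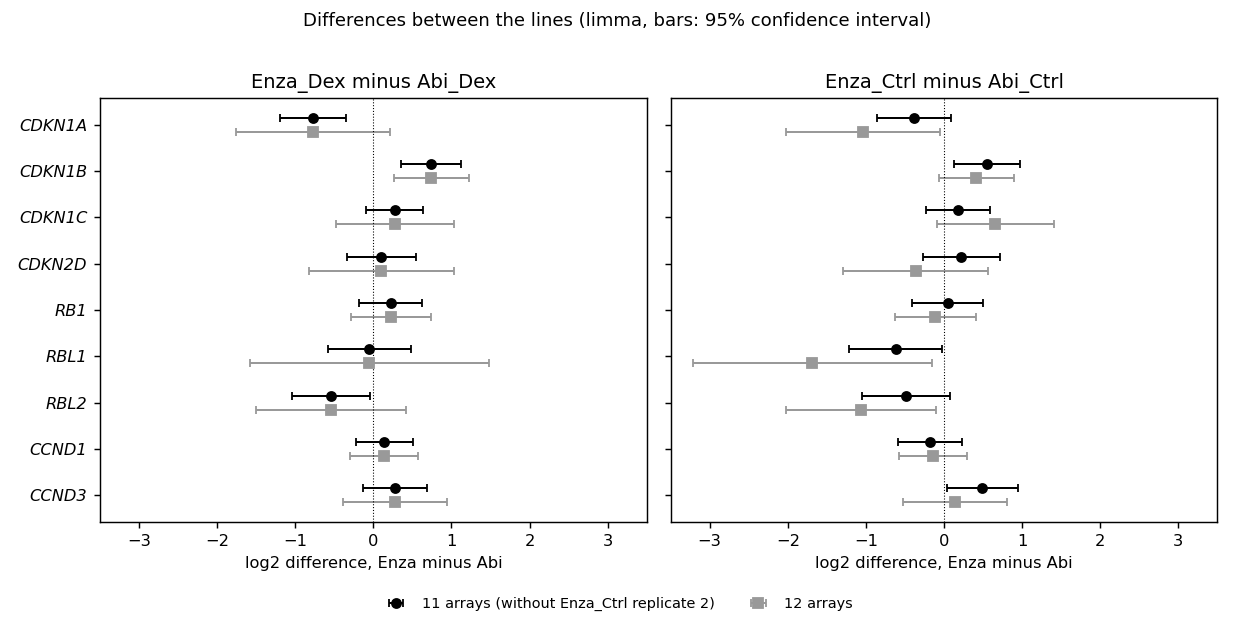
Log2 difference of LNCaPabl-Enza minus LNCaPabl-Abi (horizontal axes) for the 9 genes under dexamethasone (left) and DMSO (right). Points are limma estimates with 95% confidence intervals from 11 arrays (black circles) and 12 arrays (grey squares). The points of CDKN1B lie above 0 and those of CDKN1A below 0 under both treatments, at 0.74 and -0.78 under dexamethasone. The 12-array intervals are wider. With DMSO on 11 arrays the interval of CDKN1A, -0.86 to 0.09, includes 0. On 12 arrays the intervals of CDKN1A under dexamethasone and of CDKN1B with DMSO include 0.

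With DMSO the same pair pointed the same ways without a call. On 11 arrays CDKN1B was at 0.55 ± 0.20 (SE, adjusted p = 0.265) and CDKN1A at -0.39 ± 0.22 (adjusted p = 0.568). CCND3 was at 0.49 ± 0.21 (adjusted p = 0.397), RBL1 at -0.62 ± 0.28 (adjusted p = 0.425), RBL2 at -0.48 ± 0.26, CDKN2D at 0.22 ± 0.23, CDKN1C at 0.18 ± 0.19, CCND1 at -0.19 ± 0.19 and RB1 at 0.05 ± 0.21. Of the members 0 of 9 were called with either set, against 0.266% of all genes with 12 arrays and 1.29% with 11. The groups did not overlap for 5 of 9 members on 11 arrays, CDKN1B, CDKN1C and CCND3 above and CDKN1A and RBL1 below, where 24% of all genes had no overlap between 2 Enza_Ctrl and 3 Abi_Ctrl arrays. With 12 arrays it was 3 of 9, CDKN1C above and CDKN1A and RBL1 below, where 14.2% of all genes had no overlap. With 12 arrays RBL1 was at -1.69 ± 0.70, RBL2 at -1.06 ± 0.44 and CDKN1A at -1.04 ± 0.45, while CDKN1C was at 0.66 ± 0.34, CCND3 at 0.14 ± 0.30, CDKN2D at -0.36 ± 0.42 and RB1 at -0.11 ± 0.23. The deviating array moved each of these 7 by more than 1.5 times, and CDKN2D and RB1 had the opposite sign without it.

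A contrast of the lines averaged over both treatments, chosen after these values were seen, called 2 of 9 members on 11 arrays, where 4.92% of all genes were called. CDKN1B was higher in LNCaPabl-Enza by 0.64 ± 0.13 (SE, interval 0.36 to 0.93), 1.56-fold, with an adjusted p of 0.00985. CDKN1A was lower by -0.58 ± 0.15 (interval -0.90 to -0.26), 0.668-fold, with an adjusted p of 0.0351. RBL2 at -0.51 ± 0.18 (adjusted p = 0.128), CCND3 at 0.38 ± 0.14 (adjusted p = 0.173) and RBL1 at -0.34 ± 0.19 (adjusted p = 0.417) were not called. With 12 arrays 0 of 9 members and 1.28% of genes were called, CDKN1B being at 0.58 ± 0.15 (adjusted p = 0.135) and CDKN1A at -0.91 ± 0.32 (adjusted p = 0.317). RBL2 was then at -0.80 ± 0.31, CCND3 at 0.21 ± 0.21 and RBL1 at -0.87 ± 0.49. With a further array left out in turn, CDKN1B was called in 10 of 11 cases, the exception being the case without Enza_Ctrl replicate 3 (adjusted p = 0.0679), and CDKN1A in 5 of 11, with adjusted p from 0.0277 to 0.174. CDKN1A lost its call without Enza_Dex replicate 1 or 3, Enza_Ctrl replicate 3, Abi_Dex replicate 1 or 2, or Abi_Ctrl replicate 1.

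**Figure D4:**
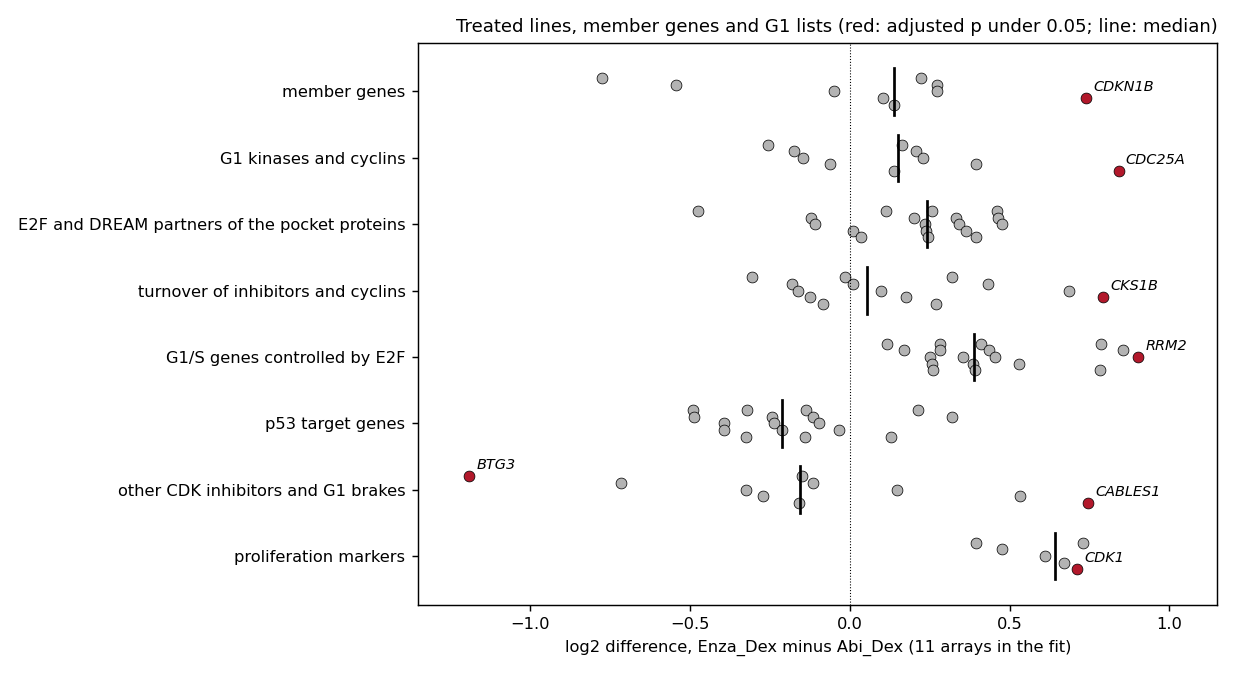
Log2 difference of Enza_Dex minus Abi_Dex (horizontal axis, 11 arrays in the fit) for the 9 measured members and for 7 lists of genes around them. Each point is a gene, the vertical line is the median of a list, and named red points have a limma adjusted p under 0.05. All 18 G1/S genes and all 6 proliferation markers lie above 0, with medians of 0.39 and 0.64.

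The genes around the members were read from 8 lists, by counts and medians. Between the lines under dexamethasone, on 11 arrays, all 18 measured G1/S genes controlled by E2F had a positive difference, with a median of 0.39, as did all 6 proliferation markers, with a median of 0.64, where 48.6% of all genes were positive and their median was -0.01. With 12 arrays these counts and medians are the same, because the deviating array is in neither group, but no gene of the lists was called. With DMSO on 11 arrays 14 of 18 and 5 of 6 were positive, with medians of 0.16 and 0.45, where 49.6% of all genes were. The negative marker was MKI67, the Ki-67 gene, at -0.05. With DMSO on 12 arrays it was 4 of 18 and 2 of 6, with medians of -0.44 and -0.47, where 48.0% of all genes were. Under dexamethasone on 11 arrays RRM2, the small subunit of ribonucleotide reductase, was higher by 0.90 ± 0.19 (SE, adjusted p = 0.0220), the 1 of 18 called. CDK1, the kinase of mitotic entry, was higher by 0.71 ± 0.17 (adjusted p = 0.0464), the 1 of 6 called, and MKI67 was at 0.40 ± 0.22 (adjusted p = 0.547). Among the 18 E2F and DREAM partners of the pocket proteins 15 were positive, with a median of 0.24 and none called.

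Of the 10 measured G1 kinases and cyclins 6 were positive, with a median of 0.15, and CDC25A, the phosphatase that activates CDK2, was called at 0.84 ± 0.21 (SE, adjusted p = 0.0464 on 11 arrays). Of 14 genes for the turnover of inhibitors and cyclins 8 were positive, with a median of 0.055, and CKS1B, the adaptor with which SKP2 recognises p27, was called at 0.79 ± 0.19 (adjusted p = 0.0360). CKS1B and CDKN1B were both higher in Enza_Dex, at 12.15, 12.13 and 12.36 for CKS1B against 11.39, 11.19 and 11.67 in Abi_Dex. Of 17 measured p53 target genes 3 were positive, with a median of -0.21 and none called, and TP53I3 was at -0.21 ± 0.29 (adjusted p = 0.877).

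Of the 10 other inhibitors and G1 brakes measured, 3 were positive and 2 were called in opposite directions. CABLES1, which links cyclin-dependent kinases with kinases that phosphorylate them, was higher by 0.75 ± 0.17 (SE, adjusted p = 0.0322). BTG3, an antiproliferative gene, was lower by -1.19 ± 0.23 (adjusted p = 0.00929 on 11 arrays), 0.438-fold. BTG3 was at 8.81, 9.46 and 9.38 in Enza_Dex, at 8.88, 8.82 and 9.55 in Enza_Ctrl, at 10.24, 10.29 and 10.69 in Abi_Dex and at 10.34, 10.41 and 10.28 in Abi_Ctrl. Every LNCaPabl-Enza array was below every LNCaPabl-Abi array, and with DMSO the difference was -1.13 ± 0.25 (adjusted p = 0.0404 on 11 arrays), a call made in 3 of the 11 cases with a further array left out. With 12 arrays it was -1.26 ± 0.27 and not called (adjusted p = 0.107). Averaged over both treatments, BTG3 was called with 12 arrays (-1.22 ± 0.19, adjusted p = 0.0082) and with 11 (-1.16 ± 0.17, adjusted p = 0.000619). RRM2 was also called with both sets, at 0.75 ± 0.16 (adjusted p = 0.0493) and 0.79 ± 0.15 (adjusted p = 0.00427). When single arrays were left out of the 12, BTG3 was called in 12 cases but RRM2 in 1, with limma adjusted p up to 0.162. On 11 arrays CDC25A at 0.80 ± 0.15, CKS1B at 0.57 ± 0.14, CABLES1 at 0.55 ± 0.13 and ERRFI1, a feedback inhibitor of the EGF receptor, at -0.81 ± 0.20 were called too, with adjusted p from 0.00616 to 0.0293. TK1, a thymidine kinase, joined RRM2 among the G1/S genes on 11 arrays, at 0.87 ± 0.20 (adjusted p = 0.0205). Of the proliferation markers CDK1 at 0.62 ± 0.13, AURKA at 0.64 ± 0.14 and CCNB1 at 0.60 ± 0.15 were called, with adjusted p from 0.0109 to 0.0319, as was E2F6, a repressive E2F, at 0.58 ± 0.15 (adjusted p = 0.034). MKI67 had the lowest value of the markers, 0.17, and was not called. On 11 arrays all 18 G1/S genes and 6 of 6 proliferation markers were positive in this contrast, with medians of 0.26 and 0.55, but with 12 arrays 6 of 18 and 4 of 6 were, with medians of -0.09 and 0.066, so that Enza_Ctrl replicate 2 turned the direction of the G1/S list. With a further array left out in turn, BTG3 and RRM2 were called in 11 of 11 cases, CDC25A, CDK1 and AURKA in 10, TK1 in 8, CKS1B and CABLES1 in 5, ERRFI1 and CCNB1 in 4 and E2F6 in 2. The part of these lists in the line differences of CDKN1B and CDKN1A was not tested.

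Of 6 measured glucocorticoid check genes 1 was positive between the lines under dexamethasone, and 2 of the 5 negative ones were called lower on 11 arrays. SGK1 was at -2.62 ± 0.63 (SE, adjusted p = 0.0416), and ERRFI1 at -1.14 ± 0.27 (adjusted p = 0.0376). With a further array left out in turn, the calls of the list genes in this comparison were made in 10 of 11 cases for BTG3, 7 for RRM2 and ERRFI1, 6 for CKS1B and CABLES1, 5 for CDC25A and 2 for CDK1 and SGK1.

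In response to dexamethasone, no gene of these lists was called with either set, apart from SGK1 among the glucocorticoid check genes. In LNCaPabl-Enza on 11 arrays 5 of 18 G1/S genes, 6 of 18 E2F and DREAM partners and 0 of 6 proliferation markers had a positive difference, with medians of -0.17, -0.10 and -0.16, where 51.0% of all genes were positive. In LNCaPabl-Abi 1 of 18 G1/S genes, 3 of 18 E2F and DREAM partners and 0 of 6 proliferation markers were positive, with medians of -0.35, -0.19 and -0.42, where 50.4% of all genes were positive. Among the E2F and DREAM partners LIN54, a DNA-binding subunit of DREAM, had the smallest p in LNCaPabl-Abi, at -0.67 ± 0.20 (SE, adjusted p = 0.489). MKI67 was at -0.53 ± 0.22 in LNCaPabl-Abi (adjusted p = 0.678) and at -0.08 ± 0.25 in LNCaPabl-Enza (adjusted p = 1.00). With 12 arrays the counts in LNCaPabl-Enza were 15 of 18, 14 of 18 and 5 of 6 positive, so that the direction of these lists there depended on Enza_Ctrl replicate 2.

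Over the 11 arrays, the genes whose levels followed a member most closely were read for the 3 members with the widest range. For CDKN1A, with a range of 1.24, these were USP2 (Pearson r = 0.941), GSTM4 (r = 0.940) and ABCG1 (r = 0.923). For RBL1, with a range of 1.23, they were CHASERR (r = 0.935), CPAP (r = 0.933) and MSL1 (r = 0.932). For RBL2, with a range of 1.07, they were ASNS (r = 0.962), CD99 (r = 0.959) and ADAMTS1 (r = 0.948). The 11 points share 2 lines and 2 treatments, and these values describe likeness over them.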

How the data were processed

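RNA of the 12 samples was labelled with biotin (WT PLUS kit) and hybridised to single-colour arrays, per the labels' protocols. The values are log2 levels as deposited by the authors, 1 for each transcript cluster. Per the submitters' processing notes the tools were RMA, Affymetrix Expression Console and limma, and no version or genome build is named in the sources used here. A span of 1.66 to 18.6 is wide for RMA, so folds hold on the deposited scale only.

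Groups and replicate numbers came from the titles. No label says that replicates were separate cultures, so p-values cover the spread among arrays, perhaps partly technical. The number of arrays limits the precision. Of 24351 transcript clusters, 17709 had 1 symbol in the platform annotation, and the brightest per symbol left 17687 genes. Group means were fitted to all of them with limma 3.58.1 in R 4.3.3 (Benjamini-Hochberg adjustment, no filter, no block), and the code was tested on simulated data.

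The members, lists and naming rule were chosen with earlier results of these data known. The rule names every member, called genes of each list (up to 4 a comparison) or else the one with the smallest p for dexamethasone, MKI67 and SGK1, and the 3 genes most like each of 3 members. Promoter windows matched 7 of the 9 measured members. Alternatives were single-array omissions, quantile normalization, a filter on dim genes, a replicate block, fewer groups, a robust variance model, array weights and all annotated clusters. The omission of 2 arrays together and the contrast averaged over treatments were added after seeing the data.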

Additional observations from a re-analysis of the deposited data

How the results depend on the processing

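All member differences were recomputed under the alternatives named above, and the members' adjusted p stayed above the threshold for dexamethasone in both lines under every one of them. Leaving out single arrays gave 0 to 25 genes called for dexamethasone in LNCaPabl-Abi (0 without Abi_Ctrl replicate 2, 25 without Enza_Ctrl replicate 2), 0 to 1 in LNCaPabl-Enza, 1 to 27 for the mean effect, 11 to 242 for the untreated lines, 12 to 459 for the treated lines and 120 to 913 for the lines averaged over treatments, the omissions of 2 arrays included. Members called ran from 0 to 1 for the treated lines and from 0 to 2 for the averaged lines. Fitting only the groups compared gave 22 genes for dexamethasone in LNCaPabl-Abi, 0 for the untreated and 502 for the treated lines, with 1 member, CDKN1B (adjusted p = 0.0302). Array weights gave 37 genes in LNCaPabl-Abi, 36 for the mean effect, 252 untreated, 767 treated and 1117 averaged, with 2 members (CDKN1A and CDKN1B) for the treated and 2 for the averaged lines. New quantile normalization called 1 member, CDKN1B, for the averaged lines. The filter on dim genes, the robust variance model and the use of all annotated clusters kept each count of called genes within 1.5 times.

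The replicate numbers were not treated as pairing, as no label says that they mark a shared batch. Correlations of same-numbered deviations from the group means ran from 0.00397 to 0.303, and 5 of 12 pairs were above 0.1. The Enza_Ctrl mean holds the deviating array, so pairs with that group cannot show whether the numbers match. Between Abi_Dex and Abi_Ctrl r was 0.137, 0.083 and 0.303, and between Enza_Dex and Abi_Dex 0.069, 0.182 and 0.191. A shared batch by number was not tested further. With the replicate block on 12 arrays CDKN1B in the treated lines kept its difference of 0.74 and no member was called. The replicate block with Enza_Ctrl replicate 2 left out gave 39 genes for LNCaPabl-Abi, 35 for the mean effect, 1 for the difference between the responses, 303 untreated, 540 treated and 1060 averaged, with 2 members treated (CDKN1B, adjusted p = 0.0318, and CDKN1A, adjusted p = 0.0247) and 3 averaged (CDKN1B, CDKN1A and RBL2, the last with an adjusted p of 0.0429), so that, against the 11 arrays without the block, CDKN1A gained a call in the treated and RBL2 in the averaged lines.

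Signs of uncalled members turned mainly with Enza_Ctrl replicate 2. For dexamethasone in LNCaPabl-Enza the values were, in the order of the replicate block with that array left out and array weights, -0.34 and -0.27 for CDKN1A, 0.19 and 0.11 for CDKN1C and -0.10 and -0.039 for RBL2. That block with the array left out also turned CDKN1B to -0.029, CDKN2D to -0.023 and RBL1 to -0.059. Quantile normalization turned CDKN1A to -0.053, CDKN1B to -0.16 and CCND1 to -0.13 there, and CDKN1C to -0.032 in LNCaPabl-Abi. The mean effect of RBL1 turned to -0.36 and -0.33 under that block and weights. For the untreated lines CDKN2D turned to 0.32 and 0.29 and RB1 to 0.064 and 0.13 under these, and RB1 to 0.22 and CCND1 to 0.10 under quantile normalization. RBL1 in the treated lines turned to 0.021 with weights. For the averaged lines CDKN2D turned to 0.21 and 0.17 and CCND1 to 0.0092 and 0.0021, or 0.11 with quantile normalization. Of the other members, 18 of 112 values of the difference between responses and of the mean effect took the opposite sign, with 0 called. The cause of these turns was not tested beyond the omission of the array.

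Omissions of arrays also turned signs, and the ranges that follow cover 1 array left out and, between the lines, also Enza_Ctrl replicate 2 with a further array. In LNCaPabl-Abi CDKN1C ran from -0.071 to 0.12 and RBL2 from -0.17 to 0.23. In LNCaPabl-Enza CDKN1A ran from -0.28 to 0.79, CDKN1C from -0.60 to 0.12, RB1 from -0.17 to 0.10, RBL1 from -0.083 to 1.72, RBL2 from -0.040 to 0.97 and CCND1 from -0.0034 to 0.14. The mean effect of RBL1 ran from -0.37 to 0.53. For the untreated lines CDKN2D ran from -0.67 to 0.38, RB1 from -0.26 to 0.20 and CCND3 from -0.076 to 0.63. For the treated lines CDKN2D ran from -0.064 to 0.23 and RBL1 from -0.26 to 0.17. For the averaged lines CDKN2D ran from -0.29 to 0.24, RB1 from -0.020 to 0.21, CCND1 from -0.074 to 0.035, E2F6 from -0.14 to 0.66 and CCNB1 from -0.32 to 0.70.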
